A study of Homo sapiens with 8 samples.

Results

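Messenger RNA levels of 9 tight junction genes were followed across 2 human colorectal cancer cell lines: the claudins CLDN1, CLDN2, CLDN3, CLDN4, CLDN7 and CLDN12, occludin (OCLN), and the scaffold genes TJP1 and TJP3. They were taken by gene symbol from the 19124 genes of the deposited tables, and all 9 were found. HCT116 and HT29 are established epithelial lines from colorectal cancers. Each was transfected by lipid reagent with 15 nM of a negative control siRNA (NC) or of an siRNA against RPL9, RPL17 or RPL27, which encode proteins of the large ribosomal subunit. Total RNA was taken 48 h later. The 8 groups (HCT116 with NC, RPL9, RPL17 or RPL27 siRNA, and HT29 with the same 4) held 1 library each. The control cells of both lines thus carried an siRNA too, and untransfected cells were not analysed here. Because no line had a second library of any siRNA, the difference between lines was tested with the 4 siRNAs as replicates, and the siRNAs with the 2 lines as replicates. Those p-values measure the spread between such libraries, not between repeat cultures.

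Tight junctions seal the space between neighbouring epithelial cells near their apical surface. Claudins are small membrane proteins that span the membrane several times and polymerise into strands. Some of them tighten the seal, while CLDN2 forms channels for small cations and water. Occludin runs along the same strands, and the TJP proteins (ZO proteins) bind claudin tails inside the cell and tie them to actin. In the colon, claudins differ along the crypt and are often altered in tumours.

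Values were RPKM, read counts scaled to transcript length and library size, which here behaved as a sum of the RPKMs of a gene's exons. Genes with more exons therefore read higher, and levels of different genes are compared only after division by the number of exons, an approximate level per length. All other statements compare libraries for 1 gene, on the scale log2(RPKM + 1). A fitted difference on this scale understates the change of genes near 0. Depth was estimated at 20.7 to 26.5 M reads per library. In each line each targeted gene was lowest in the library of its own siRNA, at 13.7% to 38.5% of NC, against 29.3% to 121% with the other RPL siRNAs. 1 library stood apart: in HT29 NC the level relative to the mean of the other 7 libraries fell with transcript length (Spearman's rho = -0.61 across 11467 genes, which are not independent replicates), against 0.15 to 0.29 in the others. Line differences that HT29 NC moves are therefore also given without both NC libraries, and differences from NC within HT29, which cannot be had without it, with the length trend removed.

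The epithelial identity of both lines was checked on 10 colon epithelial markers, whose summed level was 19417 to 31257 RPKM in HCT116 and 44174 to 50376 RPKM in HT29. EPCAM, an epithelial adhesion molecule that also binds claudin-7, lay at 2248 to 2419 RPKM in HCT116 and 3374 to 4431 RPKM in HT29. VIL1 (villin of the brush border) and LGALS4 (an intestinal galectin), both defining markers of colon epithelium, were far lower in HCT116 than in HT29. In HCT116 they lay at 0 to 2.89 and 0 to 12.0 RPKM, with VIL1 at 0 with RPL17 siRNA and LGALS4 at 0 with NC. In HT29 they lay at 358 to 475 and 1859 to 3175 RPKM. Of the 10 markers 6 were called lower in HCT116 by limma and 0 higher, where 3.61% of all tested genes were called. Others overlapped between HCT116 and HT29: CDX2 at 10.5 to 18.8 and 8.04 to 18.3 RPKM, and CDH17 at 1.21 to 5.87 and 0.449 to 8.28. KRT19 also overlapped, at 3461 to 8464 and 5524 to 6470 RPKM. The 12 mesenchymal markers summed to 571 to 812.5 RPKM in HCT116 and 403.7 to 610.4 RPKM in HT29, and 0 of the 8 tested were called between lines by limma, with 2 at an unadjusted p under 0.05. The 8 endothelial markers summed to 5.99 to 27.1 and 31.0 to 71.7 RPKM, with 0 of 4 called and 1 at an unadjusted p under 0.05. Between lines 19.3% of all tested genes had an unadjusted p under 0.05. Of 10 leukocyte markers LYZ (lysozyme, also made by intestinal secretory cells) was the 1 called, at 3.85 to 14.4 RPKM in HCT116 and 1844 to 3001.5 RPKM in HT29, within sums of 107.6 to 161 and 1941 to 3075 RPKM. CD3D was at 0 in all 8 libraries. The part of other cell types in the results was not tested.

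The sequence just before the start site is shown for the members that differed most between lines, CLDN1 and CLDN3, for CLDN4, which follows CLDN3 on chromosome 7 with 60.7 kb between the 2 genes, and for CLDN7, whose window held the most E-boxes. Each is the 200 bases upstream of a RefSeq start on GRCh38.p14, read 5′ to 3′ on the gene's strand, while the deposited values rest on hg19. Capitals mark CACCTG, the E-box bound by SNAI and ZEB repressors of epithelial genes, and GGGCGG, the GC box bound by SP factors, on either strand. No E-box overlapped a GC box in these windows.
CLDN1, chr3:190322447-190322646, minus strand: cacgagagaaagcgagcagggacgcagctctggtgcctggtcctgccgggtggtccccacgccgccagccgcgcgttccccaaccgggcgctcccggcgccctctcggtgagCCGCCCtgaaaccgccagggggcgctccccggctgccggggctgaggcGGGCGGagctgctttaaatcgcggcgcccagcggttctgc
CLDN3, chr7:73770271-73770470, minus strand: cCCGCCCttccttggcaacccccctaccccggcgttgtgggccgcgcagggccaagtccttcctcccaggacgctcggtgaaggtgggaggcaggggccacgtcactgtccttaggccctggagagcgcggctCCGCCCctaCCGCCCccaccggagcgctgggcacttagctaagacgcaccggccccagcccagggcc
CLDN4, chr7:73830796-73830995, plus strand: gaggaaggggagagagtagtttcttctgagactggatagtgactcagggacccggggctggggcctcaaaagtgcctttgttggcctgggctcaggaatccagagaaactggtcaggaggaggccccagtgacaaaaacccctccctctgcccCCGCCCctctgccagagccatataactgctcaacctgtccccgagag
CLDN7, chr17:7262479-7262678, minus strand, the second RefSeq start: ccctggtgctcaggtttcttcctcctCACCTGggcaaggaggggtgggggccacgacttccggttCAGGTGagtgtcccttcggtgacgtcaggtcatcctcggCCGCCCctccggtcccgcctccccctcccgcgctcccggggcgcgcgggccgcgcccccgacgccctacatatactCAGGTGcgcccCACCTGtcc
The CLDN1, CLDN3 and CLDN4 windows held 2, 3 and 1 GC boxes and no E-box. The CLDN7 window held 4 E-boxes and 1 GC box. Over the 16 RefSeq starts of the 9 genes, 5 windows held an E-box (in CLDN7, OCLN, TJP1 and TJP3) and 9 a GC box. Of 35116 RefSeq windows of the same length, 14.2% held an E-box and 40.1% a GC box. CCAAT was found in 3 of the 16 windows (28.0% of all windows), and TATAAA (8.59%) and the forkhead motif TGTTTAC (2.32%) in none. These matches describe letters in a window and are not binding sites.

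Among the claudins, CLDN1 and CLDN3 differed most between lines by the fit, and both were higher in HT29. CLDN1, a sealing claudin, was at 0.725, 0.579, 0 and 0.0443 RPKM in HCT116 with NC, RPL9, RPL17 and RPL27 siRNA, and at 8.93, 20.5, 14.6 and 3.80 RPKM in HT29. The lowest HT29 library was 5.25 times the highest HCT116 library, so the lines did not overlap. The fitted difference, HCT116 minus HT29, was -3.12 ± 0.40 (SE, log2; limma adjusted p = 0.015), and the lower level in HCT116 held in all 4 siRNA pairs.

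The HCT116 values of CLDN1 rest on very few reads. Whole reads could be recovered there from the exon lengths: 12 with NC, 4 with RPL9, 0 with RPL17 and 3 with RPL27 siRNA. Their exact 95% Poisson intervals, which cover counting error only, were 6.20 to 21.0, 1.09 to 10.2, 0 to 3.69 and 0.619 to 8.77 reads. In the RPL9 siRNA library 1 read in exon 3, which is 85 bases long, gave with the sum over exons 91.5% of the listed 0.579 RPKM. Over the whole transcript of 3481 bases the same reads give 0.158, 0.0517, 0 and 0.0348 RPKM. The intervals of NC and RPL17 siRNA did not overlap, and those of all other pairs of these libraries did. CLDN1 overlaps CLDN16 in the annotation, and strand was not stated.

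CLDN3, also a sealing claudin, was at 1.37, 0.848, 0.872 and 1.11 RPKM in HCT116, in the order NC, RPL9, RPL17 and RPL27 siRNA. In HT29 it was at 12.2, 5.10, 5.81 and 4.33 RPKM. As a gene of 1 exon it allowed reads to be recovered in every library: 38, 24, 23 and 35 in HCT116 and 357, 172, 167 and 133 in HT29. The lines did not overlap, and the lowest HT29 library was 3.16 times the highest HCT116 library. CLDN3 was lower in HCT116 by the fit, at -1.85 ± 0.30 (limma adjusted p = 0.033). HT29 NC was the highest library, and without both NC libraries the difference was -1.64 (adjusted p = 0.018).

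These were the 2 of 9 members called between lines (22.2%), both lower in HCT116, where 3.61% of the 14281 tested genes were called. Neither call held under every setting: CLDN1 was called under 17 of 22 alternatives and CLDN3 under 12 of 21. Without any 1 of the 6 RPL siRNA libraries CLDN3 was not called (adjusted p up to 0.18), and CLDN1 was not called without 1 of the 4 RPL9 or RPL17 siRNA libraries (up to 0.094). With no filter on low values both missed the threshold, at 0.066 for CLDN1 and 0.061 for CLDN3. CLDN3 also missed it with a pseudocount of 5 (0.053) and with quantile normalization (0.051). Without both NC libraries 5 members were called, all lower in HCT116: CLDN1, CLDN2, CLDN3, CLDN4 and TJP3. That setting called 3265 genes in all (22.9%).

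**Figure D1:**
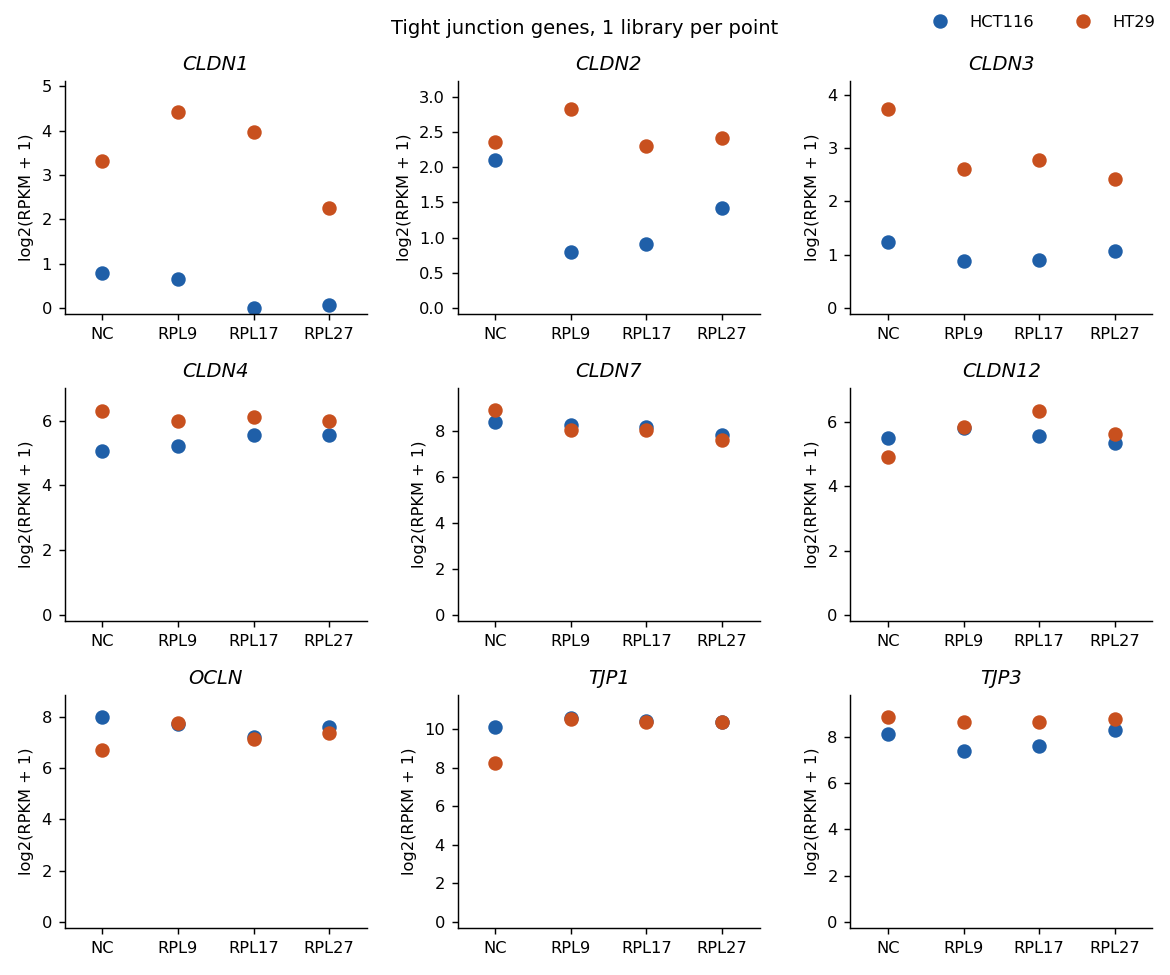
Level of each of the 9 genes as log2(RPKM + 1) on the vertical axis by siRNA, with 1 point per library (blue HCT116, orange HT29). CLDN1, CLDN2, CLDN3, CLDN4 and TJP3 lie higher in HT29 with every siRNA, and the TJP1 point of HT29 NC lies far below the other 7.

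CLDN4 and CLDN2 also lay higher in HT29 in every library without passing the test. CLDN4, a sealing claudin abundant in colon epithelium, was at 32.1, 36.4, 46.0 and 45.7 RPKM in HCT116 with NC, RPL9, RPL17 and RPL27 siRNA, and at 78.5, 62.3, 67.9 and 61.9 RPKM in HT29. These are 1272 to 2064 reads in HCT116 and 2721 to 3283 in HT29, at the transcript length of 1823 bases that gave whole reads in all 8 libraries. The lowest HT29 library was only 1.35 times the highest HCT116 library. The difference was -0.75 ± 0.21 (limma adjusted p = 0.14), and -0.58 (0.045) without both NC libraries.

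CLDN2, the channel-forming claudin, was low in both lines: 3.29, 0.736, 0.877 and 1.68 RPKM in HCT116 and 4.12, 6.09, 3.91 and 4.35 RPKM in HT29, in the same order. The highest HCT116 library, NC, came close to the lowest HT29 library, which was 1.19 times as high. The line difference was -1.17 ± 0.36 (limma adjusted p = 0.17), and -1.47 (0.033) without both NC libraries. The gene overlaps RIPPLY1 in the annotation, and reads of the 2 could not be told apart because strand was not stated.

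CLDN7 and CLDN12 overlapped between lines. CLDN7, a claudin that binds EPCAM and is abundant in colon, was at 343, 306, 287 and 227 RPKM in HCT116 and at 489, 268, 269 and 199.6 RPKM in HT29. Its line difference was -0.01 ± 0.18 (limma adjusted p = 0.98), and 0.16 without both NC libraries. CLDN12, a claudin that lacks the usual tail motif for ZO proteins, was at 44.0, 54.9, 45.7 and 39.6 RPKM in HCT116 and at 28.8, 55.8, 80.1 and 48.6 RPKM in HT29. Its line difference was -0.13 ± 0.27 (adjusted p = 0.82). CLDN7 overlaps ELP5 in the annotation, which limits its value in the same way as for CLDN2.

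OCLN was at 257, 211, 147 and 193 RPKM in HCT116 and at 105, 215, 142 and 166 RPKM in HT29. The lines overlapped, with HT29 NC the lowest of the 8 libraries, and the line difference was 0.38 ± 0.26 (limma adjusted p = 0.46). Without both NC libraries it was 0.08 (0.63). TJP1 (ZO-1), the scaffold that joins claudins and occludin to actin, was at 1115, 1560, 1399.9 and 1324 RPKM in HCT116 and at 307, 1470.2, 1352 and 1341 RPKM in HT29. All 6 RPL siRNA libraries lay between 1324 and 1560 RPKM. The line difference was 0.49 ± 0.34 (limma adjusted p = 0.47), and 0.039 ± 0.053 (0.64) without both NC libraries.

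TJP3 (ZO-3), a scaffold found mainly in epithelia, was at 282, 169, 196 and 319 RPKM in HCT116 and at 468, 403, 404 and 440.4 RPKM in HT29. Every HT29 library was above every HCT116 library. The difference of -0.87 ± 0.18 missed the threshold narrowly (limma adjusted p = 0.062). It passed with the length trend removed (-0.89; 0.021), without both NC libraries (-0.92; 0.012), with quantile normalization (0.040) and with median-centring (0.046). TJP3 was called under 9 of 22 alternatives in all, and its adjusted p reached 0.12 with no filter on low values and 0.31 with 1 library left out. TJP3 overlaps APBA3 in the annotation.

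In all, 5 of the 9 members (55.6%) had all 4 HT29 libraries above all 4 HCT116 libraries, where 6.97% of tested genes did. The median line difference of the 9 was -0.75, and of all tested genes 0.09. Nothing is read from this about tight junction genes as a class, since the 9 were chosen with earlier results of these data known.

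**Figure D2:**
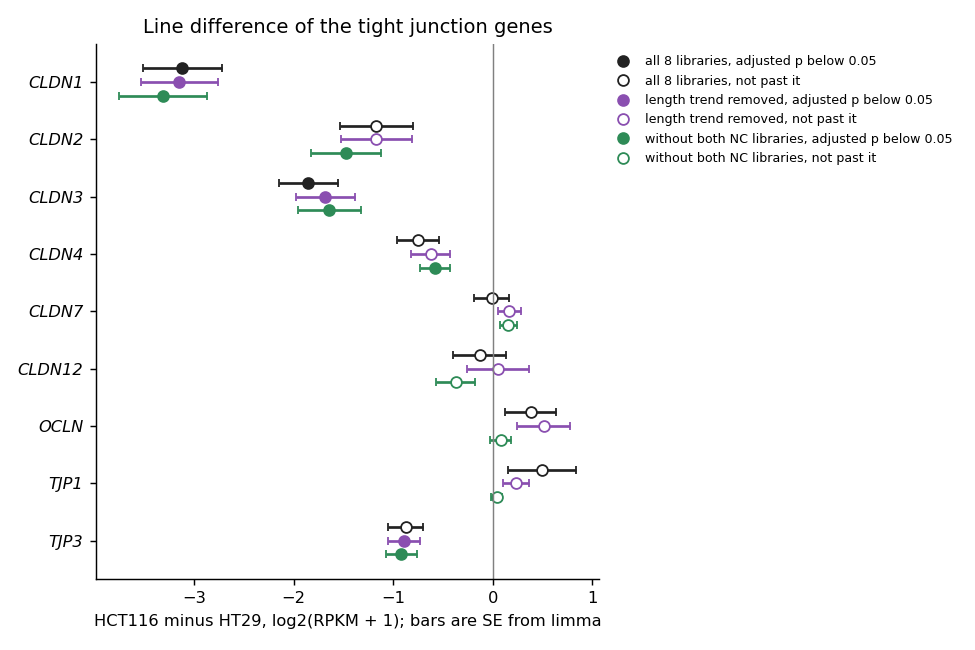
Line difference of each gene, HCT116 minus HT29, in log2(RPKM + 1) on the horizontal axis, with SE bars from limma, for all 8 libraries, with the length trend removed and without both NC libraries; filled points have an adjusted p below 0.05. CLDN1 and CLDN3 are filled in all 3 settings, TJP3 in the last 2, and CLDN2 and CLDN4 only without both NC libraries.

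Divided by the number of exons, CLDN7, TJP1 and CLDN4 were the most abundant members. In HCT116 the mean was 58.2 for CLDN7, 48.2 for TJP1, 40.1 for CLDN4 and 22.4 for OCLN (RPKM per exon, n = 4 libraries). In HT29 it was 67.7 for CLDN4, 61.3 for CLDN7, 39.9 for TJP1 and 20.4 for TJP3. The ranges of CLDN4 and CLDN7 overlapped in both lines, as did those of CLDN7 and TJP1. CLDN1, CLDN2 and CLDN3 were the 3 lowest in either line, at 0.0843, 0.822 and 1.05 in HCT116 and 2.99, 2.31 and 6.86 in HT29.

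The siRNAs against ribosomal proteins were compared with NC over both lines. By the limma fit 0 of 9 members were called for the mean of the 3 RPL siRNAs, with 2 at an unadjusted p under 0.05. Of all tested genes 0.168% were called, and 24.6% (3506) had an unadjusted p under 0.05. TJP1 had the largest value, 1.26 ± 0.39 (adjusted p = 0.15). It was 0.67 (0.04996, called) with the length trend removed, 0.35 (0.036) without HT29 NC and 2.17 (3.7e-05) without HCT116 NC, settings that called 6.09%, 12.9% and 48.6% of genes. CLDN7 stood at -0.67 ± 0.20 (0.14), at -1.01 without HCT116 NC and at -0.33 without HT29 NC. For RPL9, RPL17 and RPL27 siRNA alone limma again called 0 of 9 members, and 0.007%, 0.014% and 0% of tested genes. At an unadjusted p under 0.05 were 1, 1 and 2 members, and 20.4%, 15.7% and 16.7% of tested genes.

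Within HCT116 no member differed by at least 1 on the log2 scale in the same direction in all 3 RPL siRNA libraries, a rule of size without a test. Of all tested genes 1.93% were past it upward and 2.43% downward. CLDN2 came nearest, at -1.31, -1.19 and -0.68 with RPL9, RPL17 and RPL27 siRNA, which is 22.4%, 26.7% and 50.9% of its low NC level. TJP1 stood at 0.48, 0.33 and 0.25, and OCLN at -0.28, -0.80 and -0.41. CLDN4 was above NC in all 3 libraries, at 113.5%, 143.5% and 143% of it. CLDN7 was at 89.3%, 83.9% and 66.4% of NC. CLDN3 was at 61.9%, 63.65% and 81.0% of NC, on 23 to 38 reads, and TJP3 at 59.8%, 69.4% and 113%. CLDN12 lay on both sides of NC, at 125%, 104% and 90.0%. CLDN1 was at 79.9%, 0% and 6.11% of NC, on the few reads given above.

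Within HT29, TJP1 was the 1 member past that size rule. It stood at 2.26, 2.13 and 2.12 above NC with RPL9, RPL17 and RPL27 siRNA, which is 4.79, 4.40 and 4.36 times its NC level. Of all tested genes 16.3% were past the rule upward and 5.19% downward in HT29. TJP1 has a transcript of 7950 bases, in the longest of 10 length bins, where genes stood at a median of -1.42 in HT29 NC relative to the other libraries, and TJP1 at -2.14. With the length trend removed its differences were 1.08, 0.86 and 0.86, and it was no longer past the rule.

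CLDN3 and CLDN7 were lower than NC in all 3 RPL siRNA libraries of HT29. CLDN3 was at 41.8%, 47.6% and 35.5% of NC with RPL9, RPL17 and RPL27 siRNA, or -1.12, -0.96 and -1.31 on the log2 scale. CLDN7 was at 54.8%, 54.9% and 40.8%, or -0.87, -0.86 and -1.29. Both are short transcripts, of 1274 and 1228 bases, at the end where HT29 NC read high. With the length trend removed, CLDN3 stood at -0.71 and CLDN7 at -0.57 in the mean of the 3 libraries, against -1.13 and -1.01 before.

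**Figure D3:**
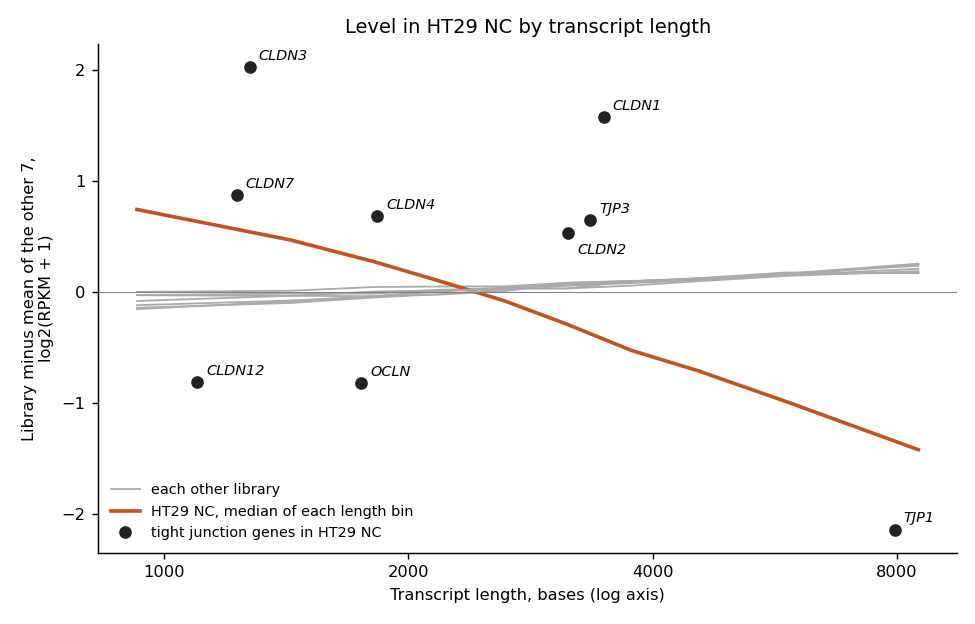
Median difference of each library from the mean of the other 7, in log2(RPKM + 1), for 10 bins of transcript length (lines; HT29 NC in orange), with the 9 genes in HT29 NC as points at the length of their matched transcript. TJP1 lies at -2.14 at the long end, CLDN3 at 2.02 near the short end, and CLDN12 and OCLN lie below the line. The other 7 libraries include those of HCT116, so the points also hold the difference between lines.

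CLDN12 and OCLN were higher than NC in all 3 RPL siRNA libraries of HT29. CLDN12 was at 193.5%, 278% and 168.5% of NC and OCLN at 206%, 135.5% and 159%. For both the correction for length turned on which transcript was taken. The transcript named in the files is 1098 bases for CLDN12 and 1748 for OCLN, while the longest protein-coding transcripts are 3565 and 6438 bases. At the named lengths the mean difference in HT29 went from 1.04 to 1.52 for CLDN12 and from 0.71 to 0.90 for OCLN. At the longest lengths it went to 0.75 for CLDN12 and to -0.29 for OCLN. Which transcripts the cells made was not analysed here.

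Among the 3 RPL siRNA libraries of HT29, CLDN1 varied most, with an SD of 1.14 on the log2 scale. Relative to NC it stood at 230.0% with RPL9, 164% with RPL17 and 42.6% with RPL27 siRNA, so the libraries lay on both sides of NC. CLDN2 was at 148%, 94.9% and 105.5% of NC in HT29, CLDN4 at 79.4%, 86.6% and 78.9%, and TJP3 at 86.15%, 86.35% and 94.1%. With the length trend removed the mean over the 3 libraries went from 0.24 to -0.12 for CLDN1, from 0.16 to -0.11 for CLDN2 and from -0.17 to -0.50 for TJP3. For CLDN4 it went from -0.29 to -0.14 at the named length and to -0.75 at the longest. None of these carries a replicate error.

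**Figure D4:**
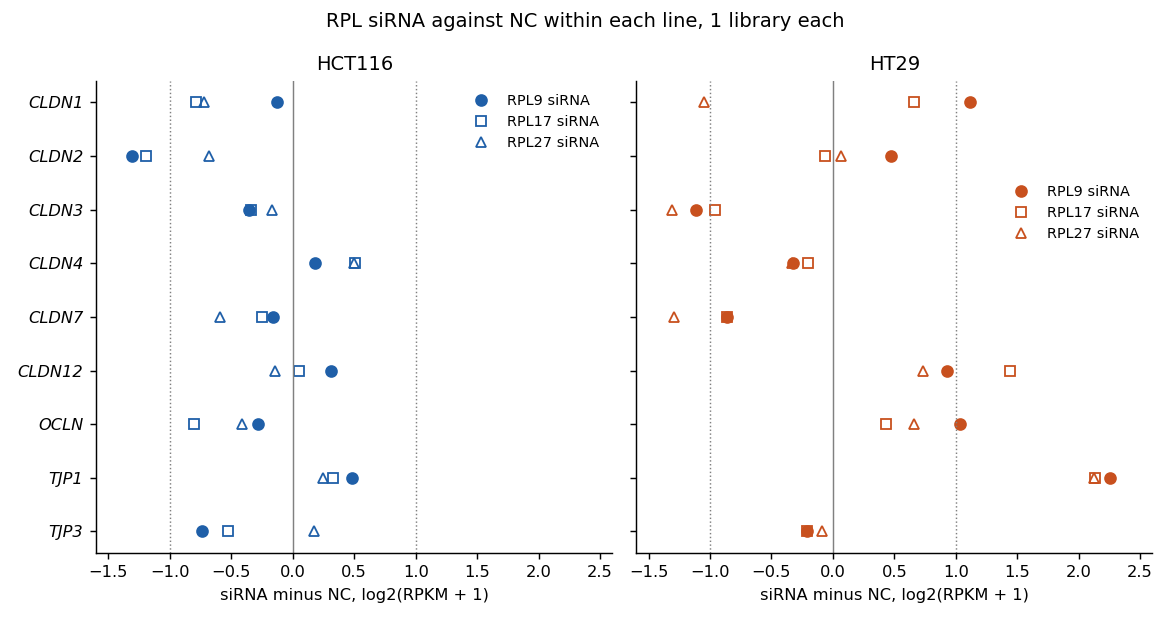
Difference of each RPL siRNA library from NC of the same line in log2(RPKM + 1) (circle RPL9, square RPL17, triangle RPL27), with dotted lines at a difference of 1 either way. TJP1 lies beyond 2 in HT29 with all 3 siRNAs and between 0.25 and 0.48 in HCT116.

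Whether the RPL siRNA effect differed between lines was tested with the 3 RPL siRNA libraries standing as replicates within a line, a fit that rests on a single NC library per line. TJP1 was the 1 of 9 members called (11.1%), where 22.9% of tested genes were. Its effect in HCT116 minus that in HT29 was -1.82 ± 0.19 (limma adjusted p = 0.00087). With the length trend removed it was -0.54 (adjusted p = 0.17) and was not called. That setting called 7.55% of genes. OCLN stood at -1.21 ± 0.40 (0.068), at -1.40 (0.078) with the length trend removed and at -0.16 (0.86) with that of the longest transcripts.

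CLDN4 and OCLN had their 3 RPL siRNA libraries on opposite sides of NC in the 2 lines: CLDN4 above NC in HCT116 and below it in HT29, OCLN the reverse. This held for 2 of 9 members (22.2%) and for 21.3% of tested genes. For CLDN4 the difference of the effects was 0.69 ± 0.35 (limma adjusted p = 0.20). OCLN lay on both sides of NC in HT29 with the length trend of the longest transcripts removed.

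Among the other genes of the junction, 16 further claudins were in the files, of which 4 passed the filter on low values (a mean of at least 1). None of the 4 was called between lines by limma. At an unadjusted p under 0.05 were 2 of them, and 19.3% of all tested genes. CLDN15, a channel-forming claudin of the intestine, was at 21.9 to 36.5 RPKM in HCT116 and 42.9 to 54.5 RPKM in HT29 (-0.62, limma adjusted p = 0.24). Of 30 other tight junction proteins 28 were tested, and 1 was called lower and 1 higher in HCT116. Of all tested genes 3.61% were called between lines in either direction. The higher was ILDR2, at 4.92 to 14.4 RPKM in HCT116 and 0.389 to 1.24 RPKM in HT29 (2.53; limma adjusted p = 0.015).

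In HT29, 11 of those 28 genes were past the size rule upward and 0 downward, where 16.3% and 5.19% of all tested genes were. With the length trend removed 7.57% of all tested genes were past it upward. A count of the list at that setting is not given here. The 3 farthest were AMOTL1 (2.54), MAGI3 (2.30) and MPP5 (2.19), which encode cytoplasmic proteins of the junction. In HCT116 JAM2 (-2.14) and CGNL1 (-1.15) were past it downward, as were 2.43% of all tested genes. In the test of the difference between lines 10 of the 28 were called lower and 1 higher, and with the length trend removed 2 and 1. Of all tested genes 22.9% were called in either direction, and 7.55% with the length trend removed. The transcripts of AMOTL1, MAGI3 and MPP5 are 8970, 6430 and 5006 bases long, in the range where HT29 NC read low.

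Of 21 adherens junction and desmosome genes, DSC3, a desmosomal cadherin, was called higher in HCT116 (3.36; limma adjusted p = 0.0051). PVRL2, which encodes nectin-2, was called lower (-0.87; 0.033). Between lines 3.61% of all tested genes were called in either direction. In HT29, 8 were past the size rule upward and none downward, where 16.3% and 5.19% of all tested genes were. They were led by DSP (2.81), DSG2 (2.51) and MLLT4 (2.43), uncorrected for length, with transcripts of 7812, 5831 and 6812 bases. In the test of the difference of RPL siRNA effects between lines 8 were called lower, and 3 with the length trend removed. That test called 22.9% of all tested genes in either direction, and 7.55% with the length trend removed.

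Of 9 claudin partners at the membrane 4 were called lower in HCT116 and 0 higher, where 3.61% of all tested genes were called in either direction. The largest was TSPAN8, a tetraspanin, at 0 to 1.22 RPKM in HCT116 and 435 to 901 RPKM in HT29 (-8.94; limma adjusted p = 0.00039). CD82, another tetraspanin, stood at -1.33 (0.029), and SPINT1, an inhibitor of the protease matriptase, at -0.87 (0.021). The fourth was EPCAM, at -0.73 ± 0.11 (0.026). CD81 was past the size rule downward in HT29, at -1.26, as were 5.19% of all tested genes. That value is uncorrected for length, and its transcript of 1520 bases lies in the range where HT29 NC read high.

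Of 18 tested epithelial transcription factors 5 were called lower in HCT116 and none higher, with a median of -0.81. Of all tested genes 3.61% were called in either direction. FOXA1, a forkhead factor, was at 0.570 to 1.31 RPKM in HCT116 and 11.5 to 19.1 RPKM in HT29 (-3.01; limma adjusted p = 0.0051), and GRHL3, a grainyhead factor, at 2.01 to 18.3 and 17.5 to 95.1 RPKM (-2.28; 0.0058). GRHL3 was also past the size rule upward in both lines, at 2.23 in HCT116. GRHL1 (2.72), GRHL2 (2.19) and EHF (2.01) were past it upward in HT29. These HT29 values are not corrected for the length trend, and the transcripts are 3563, 5232 and 2519 bases long. The size rule was passed upward by 1.93% of all tested genes in HCT116 and 16.3% in HT29.

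Of 10 repressors of junction genes 7 were tested, and none was called between lines by limma. At an unadjusted p under 0.05 were 2 of them, and 19.3% of all tested genes. SNAI1 was at 11.7 to 15.0 RPKM in HCT116 and 5.14 to 18.8 RPKM in HT29, and ZEB1 at 14.6 to 32.8 and 3.49 to 30.5 RPKM. ZEB1 was past the size rule upward in HT29 (2.39, uncorrected for length), with a transcript of 6267 bases. SNAI2 was at 0.239 to 7.56 and 0 to 1.63 RPKM, and ZEB2 at 0.0325 to 0.910 and 0.0367 to 0.108 RPKM. In the colon marker list 6 of 10 were called lower in HCT116, where 3.61% of all tested genes were called in either direction. LGALS4 stood at -9.44, VIL1 at -7.89 and KRT20 at -7.01. Among all marker lists KRT19 (1.27), ITGAM (1.56) and TEK (-1.74) were past the size rule in HCT116. There 1.93% of all tested genes were past it upward and 2.43% downward. TEK was near 0, at 2.86, 0, 0 and 0.546 RPKM in HCT116 with NC, RPL9, RPL17 and RPL27 siRNA. In HT29, CDH1 (1.98), KRT20 (1.48), FAP (2.21), VIM (-1.10), ITGAM (2.07) and KDR (2.10) were past it, uncorrected for the length trend. In that line 16.3% of all tested genes were past it upward and 5.19% downward. FAP and KDR were low, at 0 and 0.0458 RPKM in HT29 NC and at most 5.28 and 5.22 RPKM in HT29 with an RPL siRNA.

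**Figure D5:**
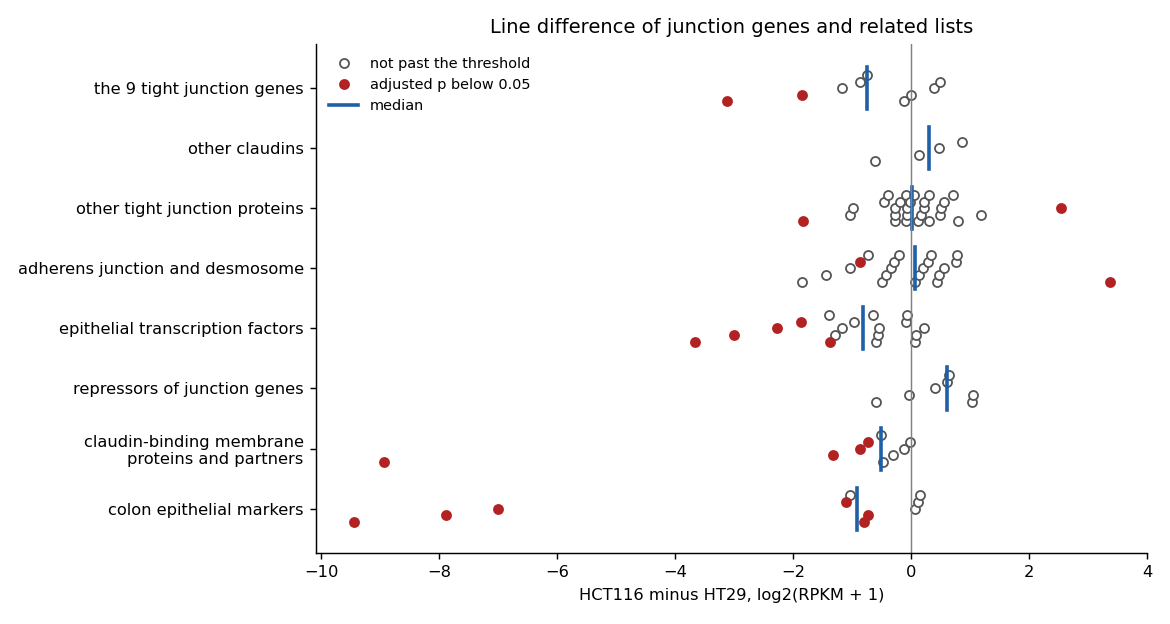
Line difference in log2(RPKM + 1) for each tested gene of the 9 members and of 7 related lists, with genes past the threshold in red and list medians as blue bars. Most red points lie left of 0, that is, lower in HCT116, and DSC3 and ILDR2 lie to the right.

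For the 4 members with the largest spread over the 8 libraries, the most similar profiles were sought among the 11514 genes whose mean reached 10 RPKM, by the root mean square difference of centred log2(RPKM + 1). Among the nearest to CLDN1 were CD302 (0.45) and SBSPON (0.52). For CLDN3 the 3 nearest were PLA2G16 (0.23), CRIP1 (0.28) and CKLF-CMTM1 (0.29), and for CLDN2 ACSM3 (0.26), B4GALNT3 (0.30) and GALNT3 (0.31). SRCAP (0.06), PAFAH1B2 (0.07) and RSC1A1 (0.07) were nearest to TJP1. Those 3 shared with TJP1 an HT29 NC value well below the other 7 libraries, at 180.2, 95.1 and 2.75 RPKM. The search used the same 8 libraries, so genes picked as nearest to TJP1 share this by selection. Not all 3 are long: their matched transcripts are 11754, 850 and 1854 bases, and the longest of PAFAH1B2 is 4198 bases. With 8 libraries these likenesses are descriptions, and the points share their libraries.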

How the data were processed

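The authors' deposited values are RPKM per gene symbol, 1 table per library, from Illumina TruSeq libraries of total RNA per the labels' protocols. Per the submitters' processing notes, CASAVA 1.8.2 and TopHat2 2.0.9 were used with hg19. How reads were assigned to exons, and whether strand was used, is not given in the sources used. All fits used log2(RPKM + 1). The filter on low values, an 8-library mean of 1 RPKM or more, left 14281 genes and all 9 members. Line and siRNA were the terms of the limma 3.58.1 model (with trend; R 4.3.3). A second model, whose siRNA term was any RPL siRNA, added the interaction. Tests are two-sided, with Benjamini-Hochberg adjustment over all tested genes and a threshold of 0.05. Transcript lengths and exon numbers came from GENCODE v29, by the accession in the files. Depth was estimated from 1186 single-exon genes, as the most frequent low value times length; 51.1% to 58.6% of low values then lay within 0.05 of a whole read.

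Reads of CLDN3 were the values times length divided by the worth of 1 read, and lay within 0.05 of whole numbers. For CLDN4 lengths of 1500 to 1950 bases were tried, and 1 gave whole reads within 0.03 in every library. CLDN1 in HCT116 was solved over its exons, with 1 solution per library. CLDN1 in HT29 and the other members gave no reads. The length trend was a spline with 5 degrees of freedom per library. On simulated data (14281 genes) the line test found 69% of genes changed by 1 (log2) and 99% of those changed by 2, beside 8 false calls. The interaction test found 2% and 40%, beside 0 false calls. The simulated spread came from the model without the interaction, so it also holds real differences of siRNA effect between lines. The 2% and 40% therefore do not tell how often the interaction test finds such changes in the real data. Each simulated gene also took a spread smoothed over genes by mean level, so spread did not vary between genes of like level. The 69% and 99% likewise do not tell how often the line test finds such changes in the real data.

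The members and lists were chosen with earlier results of these data known. Named genes were all 9 members, in each list up to 3 called between lines in each direction and up to 3 past the size rule in each direction per line, and the 3 nearest profiles. Names beyond that were chosen after their values were seen. Some genes that the rule selects are not reported here. Alternatives were pseudocounts of 0.1 and 5, other filters, quantile normalization, median-centring, removal of the length trend, limma without trend or with robust variances, each library left out, no siRNA term, any RPL siRNA as 1 term, no line term and a smaller size rule. Length removal without HT29 NC or with longest transcripts, and quantile normalization without NC, were chosen after seeing the data.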

Additional observations from a re-analysis of the deposited data

Results flagged for a closer look

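TJP1 in HT29 NC, at 307 RPKM, lay farther below the other 3 HT29 libraries than Dixon's 95% limit for 4 values allows. It was 1 of 18 groups (9 genes in 2 lines) so tested, and chance passes about 1 group in 20. The same library enters the comparison of RPL siRNA effects, where the TJP1 effect in HCT116 minus that in HT29 was -1.82 and passed its test (limma adjusted p = 0.00087). With the length trend removed that difference was -0.54 (0.17).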

How the results depend on the processing

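Counts of members called moved as follows, with the share of all tested genes called in parentheses. Between lines (2) it was 1 with a pseudocount of 5 (3.45%), 1 with a mean of at least 5 RPKM, which drops CLDN2 and CLDN3 (3.62%), 0 with no filter (1.39%), 5 without both NC libraries (22.9%) and 4 with the length trend removed and without HT29 NC (27%). Leaving out 1 library gave 0 to 5, with 5 without either NC (22.7% and 22.9%), 0 without an RPL9 or RPL17 siRNA library (1.30% to 1.34%) and 1 without an RPL27 siRNA library of either line (1.40% and 1.41%). For the mean of the RPL siRNAs (0) it was 1, TJP1, with the length trend removed (6.09%), at the longest lengths (7%) and without HT29 NC (13.2%). Leaving out 1 library gave 0 to 4, with 4 without HCT116 NC (CLDN7, CLDN12, OCLN, TJP1) and 1 without HT29 NC (TJP1). These settings called 48.6% and 12.9% of genes, since the remaining NC then stands alone in its own term and carries no error. For RPL9, RPL17 and RPL27 siRNA (0 each) leaving out 1 library gave 0 to 4, 0 to 3 and 0 to 3, the highest without HCT116 NC (46.2%, 44.2% and 44.6%). The length trend removed without HT29 NC gave 1 each (15.5%, 6.54% and 9.83%). For the difference of effects (1) median-centring gave 2 (24.8%) and removal of the length trend 0 at the named (7.55%) and longest lengths (6.11%). Leaving out 1 RPL siRNA library gave 1 each time, and no value can be had without an NC. Past the size rule, HCT116 (0) had 1 at a difference of at least 0.58 (13.2%). HT29 (1) had 2 with a pseudocount of 0.1 (23.7%), 3 with quantile normalization (21.0%), 3 with median-centring (23.2%), 4 at 0.58 (40.3%) and 0 with the longest transcripts (12.5%). With the named lengths it had 1, CLDN12 in place of TJP1 (13.2%).

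Values reversed only for members not called with all 8 libraries. Between lines, CLDN7 was at 0.17 (length trend removed), 0.16 (longest transcripts; without either or both NC), 0.22 (length, without HT29 NC) and 0.17 (quantile, without both NC). Over libraries left out CLDN7 was at -0.076 to 0.16 and CLDN12 at -0.37 to 0.093, with 0.093 without either RPL17 siRNA library, and CLDN12 was at 0.057 with the length trend removed. For the mean of the RPL siRNAs, CLDN1 was at 0.049 (pseudocount of 5) and -0.55 to 0.24 over libraries left out, and CLDN2 at -1.06 to 0.16. CLDN4 was at -0.16 (quantile; longest transcripts), -0.15 (median-centring) and -0.29 to 0.40 over libraries left out. OCLN was at -0.098 (quantile), -0.093 (median-centring), -0.37 (longest transcripts), -0.50 (length, without HT29 NC) and -0.50 to 0.71 over libraries left out. For the difference of effects TJP3 was at 0.057 (quantile), 0.25 (median-centring), 0.17 (length trend removed) and 0.066 (longest transcripts). Their causes were not tested. Median-centring moved the median of all genes from -0.19 to 0.25 for the difference of effects, from 0.10 to -0.10 for the mean of the RPL siRNAs, and the calls of the former from 873 higher and 2393 lower to 2135 and 1405. No paired analysis was possible because the groups share no replicate number beyond 1, given to each single library. The line test already compares the lines within each siRNA through its siRNA term. Precision is limited by 1 library per line and siRNA, with 3 residual degrees of freedom, and by depth for CLDN1 and CLDN3 in HCT116.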
